A study of Mus musculus with 21 samples.

Results

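Microglia from aged wild-type mice were compared with microglia from young wild-type mice. The comparison used every library of the aging experiment labelled wild type, 3 aged and 3 young, which are 6 of the 21 libraries of the series. The series asked how deletion of Trem1, a receptor of myeloid cells that amplifies inflammatory signalling, alters gene expression of brain microglia with age and in the 5XFAD model of Alzheimer's disease. Neither wild-type group carried a deletion, a transgene or a drug. The other 6 libraries of the aging experiment, 3 young and 3 aged, are labelled Trem1-/- and enter below only for comparison. They held Trem1 at 92.9 ± 5.95 (SD, n = 3) normalized counts in young and 164 ± 68.9 in aged libraries, against 13.9 ± 9.83 in young wild type, so their genotype is given only as labelled. The labels give age as a word without months, and strain, sex, isolation and sorting were not given in the sources used here. They do not say whether each library came from its own mouse, so p-values measure only the spread between these samples, which may be technical.

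Microglia are the resident macrophages of the brain. In the healthy adult they are held in a surveying state by signals from their surroundings, among them TGF-beta and the ligand of the Csf1 receptor, and they recognise tissue damage through purinergic, lipid and sialic acid receptors. With age they are known to lose part of this receptor set and to take on inflammatory, interferon and lipid-handling programmes, and cells from the blood can be present in the preparations made from a brain.

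RNA reads per gene were available as normalized counts, that is, reads divided by a size factor for each library. The 6 libraries held 11939584 to 19411434 reads on genes. Changes are given as the mean of log2(normalized count + 1) in aged minus young libraries, with the standard error of the limma fit and n = 3 in each group. Sets of 3 values are the replicates in order, with the young libraries named first. A gene is called higher or lower in aged libraries where its limma p, adjusted by Benjamini-Hochberg over 16086 genes, was under 0.05. Called genes kept the call with each of the 6 libraries left out in turn and under limma without its trend and robust options (below, plain moderation), except where the paragraph says that the call was lost. Where it was lost with a library left out, the highest adjusted p of the leave-one-out fits is given, and such genes may also have lost the call under other settings.

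The libraries carried the markers of their label in both age groups. The 13 genes that define microglia, among them P2ry12, Tmem119 and Csf1r, took up 3.88, 3.69 and 4.06% of normalized counts in young and 2.66, 3.10 and 2.98% in aged libraries. Every aged library was below every young one. Markers of other cells were rarer but many moved with age. The share of 16 classical monocyte markers was 0.0503, 0.0337 and 0.0248% in young and 0.327, 0.177 and 0.294% in aged libraries. That of 23 markers of mature neutrophils was 0.120, 0.119 and 0.0947% against 0.413, 0.230 and 0.355%, and that of 9 markers of choroid plexus and ependyma 0.0460, 0.0763 and 0.113% against 0.316, 0.205 and 0.318%. These aged libraries all lay above the young ones. B cell markers ranged from 0.0233 to 0.0253% in young and from 0.00994 to 0.0224% in aged libraries, T and NK cell markers from 0.00382 to 0.00524% and from 0.00172 to 0.00379%. Endothelial and mural markers overlapped, at 0.0443 to 0.0484% and 0.0414 to 0.0471%. In these bulk samples fewer cells of a type and less RNA per cell cannot be told apart, and the part of the other cells in the results below was not tested.

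**Figure D1:**
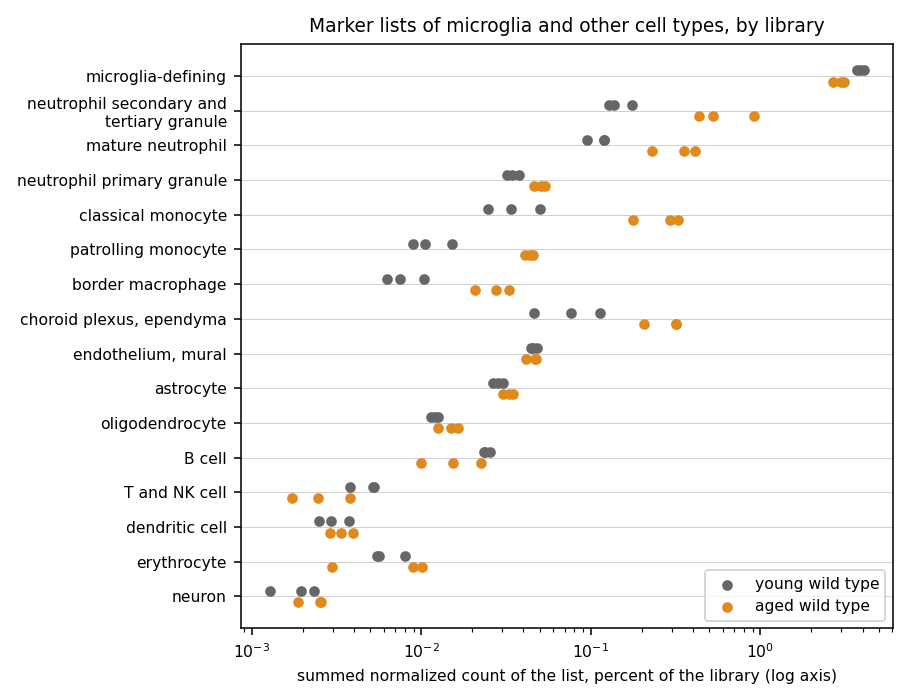
Share of each library's normalized counts (percent, log axis) in the markers of each cell type, 1 dot per library, young and aged wild type. The microglia-defining genes fell from 3.69 to 4.06% in young to 2.66 to 3.10% in aged libraries. The monocyte, neutrophil, border macrophage and choroid plexus markers were among those higher in every aged library.

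Of the library measures examined, the share of Gm26917, and with it the share of the 50 most abundant genes, separated the age groups. The 50 most abundant genes of each library took 16.5, 15.9 and 17.1% of normalized counts in young and 18.8, 17.6 and 17.2% in aged libraries. These genes include Gm26917, and without it the rest took a smaller share in every aged than in every young library. Gm26917, a long noncoding RNA on chr17:39843013-39846341 (GRCm38, plus strand) that lies just before the 18S ribosomal RNA pseudogene Rn18s-rs5 (chr17:39846354-39848202), had 181044, 140177 and 263782 normalized counts in young and 689242, 575786 and 465507 in aged libraries. That is 1.37, 1.07 and 1.97% of a young and 4.84, 4.33 and 3.34% of an aged library, and the aged libraries were all above. It was chosen for mention after its values were seen. Its change was 1.6 ± 0.29 (limma adjusted p = 0.0111), and the call was lost without aged replicate 1 and under plain moderation. Mitochondrially encoded genes took 0.579 to 0.855% of a young and 0.550 to 0.702% of an aged library, and ribosomal protein genes 0.983 to 1.11% and 1.03 to 1.35%, so that both overlapped.

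Between the ages, 1394 genes differed (8.67% of those tested), 1034 higher (6.43%) and 360 lower (2.24%) in aged libraries. The rises were larger and sat at lower levels than the falls. The median log2 change was 1.84 among called rises and -0.55 among called falls, and 744 rises but 41 falls were at least 2-fold. The median young mean was 124 normalized counts for genes that rose, 1851 for genes that fell and 182 for all genes. Genes called higher, picked on these same libraries, made up 7.06 to 8.06% of a young library and 14.1 to 16.6% of an aged one. Without Gm26917 these shares were 5.98 to 6.45% and 9.81 to 12.3%. All 3 aged libraries lay above all 3 young ones for 2423 genes (15.1%) and below them for 1795 (11.2%). Of the called genes 1364 (97.8%) did not overlap, which a call on the same values largely entails. The number called depended on single libraries. It was 620 higher and 161 lower without aged replicate 1, 559 and 172 without aged replicate 3, 858 and 209 without young replicate 1, 692 and 168 without young replicate 2, and 896 and 225 without young replicate 3. It was 511 and 70 under plain moderation. In all 6 of the leave-one-out fits 477 of the rises and 88 of the falls remained called.

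**Figure D2:**
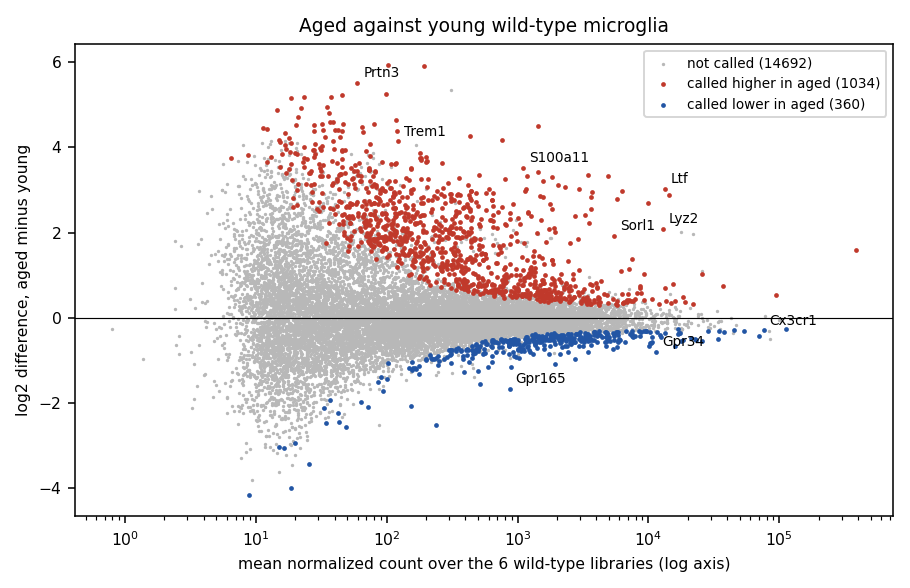
Log2 change (aged minus young wild type) of each of 16086 genes against its mean level, with called genes coloured. Rises (1034 genes) reach much larger changes than falls (360 genes), and the falls are mostly well-expressed genes.

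Several of the receptors with which microglia sense their surroundings fell. Of 24 tested G protein-coupled receptors for nucleotides, lipids, chemokines and complement, 7 were lower and 1 was higher, with a median of -0.23 against -0.01 over all genes. P2ry12, the ADP receptor that steers microglial processes to injury, had 40227, 38386 and 41330 normalized counts in young and 24749.5, 31743 and 29308 in aged libraries. The groups did not overlap, and the change was -0.49 ± 0.09 (limma adjusted p = 4.9e-04). Gpr34, a receptor for lysophosphatidylserine, went from 14642, 14334 and 14585 to 6378, 9801 and 9073, and each aged library was again below each young one (-0.81 ± 0.12). Gpr165, an orphan receptor on chrX:96713441-96719388, fell furthest of all genes named by the rule for the largest falls, from 993, 1562 and 1425 to 293, 433 and 527 (-1.68 ± 0.20, adjusted p = 6.6e-06). Gpr155 (-0.84 ± 0.15) and Ptafr, the receptor of platelet-activating factor (-0.52 ± 0.11), fell as well. Cx3cr1, which binds the neuronal chemokine fractalkine, had 82711, 79857 and 89072 against 62842, 70391 and 71552 (-0.30 ± 0.08), and the sphingosine phosphate receptor S1pr1 changed by -0.80 ± 0.19. The rise was in C5ar1, the receptor of complement C5a, at 1.35 ± 0.31. The call was lost for Cx3cr1 without aged replicate 1 or young replicate 3 (adjusted p up to 0.0784), S1pr1 without aged replicate 1 (adjusted p up to 0.0771) and C5ar1 without aged replicate 3 or young replicates 1 or 2 (adjusted p up to 0.0837). With 1 library left out the number lower was 5 to 9. The call of P2ry12, Gpr155, Ptafr, Cx3cr1, S1pr1 and C5ar1 was lost under plain moderation.

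Of all 13 microglia-defining genes, P2ry12, Gpr34 and Cx3cr1 included, 9 were lower in aged libraries, with a median change of -0.30. Siglech, a sialic acid-binding lectin of microglia that signals through Tyrobp, had 19362, 19606 and 19301 normalized counts in young and 10276, 13632 and 12856 in aged libraries and changed by -0.67 ± 0.09 (adjusted p = 4.5e-05). Fcrls, an Fc receptor-like scavenger receptor, changed by -0.48 ± 0.09. Tmem119, at 20276, 19731 and 21894 against 21077, 16130.3 and 18854, was not called (-0.15 ± 0.11), nor were Olfml3 (-0.21 ± 0.08), P2ry13 (-0.24 ± 0.10) and Slc2a5 (-0.03 ± 0.10). The survival receptor Csf1r (-0.28 ± 0.07) and the matrix protein Sparc (-0.30 ± 0.08) were lower, and their call was lost for Csf1r without young replicate 3 (adjusted p up to 0.075) and Sparc without aged replicates 2 or 3 or young replicates 1 or 3 (adjusted p up to 0.122). Without young replicate 3 the count was 5 of 13. With plain moderation Fcrls, Csf1r and Sparc lost the call.

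**Figure D3:**
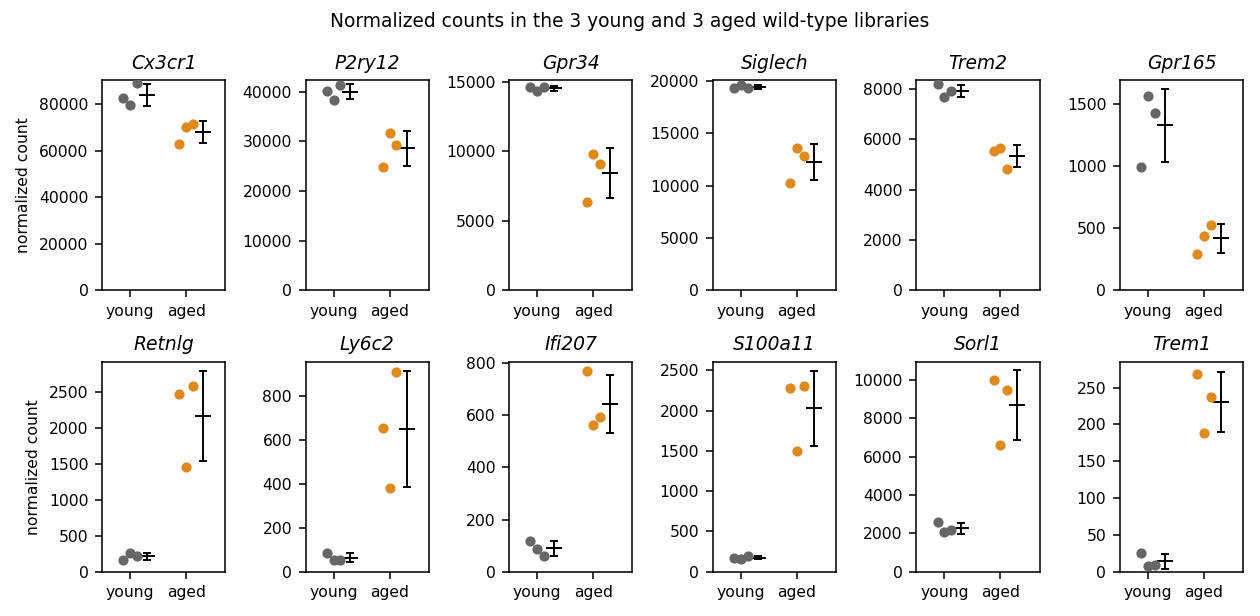
Normalized counts (linear axes from 0, each gene on its own scale) of 12 genes in each wild-type library, with 1 dot per library and the mean ± SD beside it. Cx3cr1, P2ry12, Gpr34, Siglech, Trem2 and Gpr165 are lower in all 3 aged libraries, and Retnlg, Ly6c2, Ifi207, S100a11, Sorl1 and Trem1 higher in all 3.

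The transcription factors and the TGF-beta pathway that maintain microglial identity moved less evenly. Of 26 tested members, 4 were higher and 4 lower, with a median of -0.08. Sall1, a zinc finger repressor restricted to microglia in the brain, had 25482, 26820.4 and 27421 normalized counts in young and 16069.7, 22336 and 18729 in aged libraries (-0.49 ± 0.10, adjusted p = 0.00179). Mef2c, a factor of the MADS family, changed by -0.42 ± 0.09 and the TGF-beta receptor Tgfbr1 by -0.56 ± 0.12. The co-receptor Tgfbr3, in contrast, went from 40.1, 85.3 and 44.6 to 220.0, 212 and 235 (2.03 ± 0.48). The ligand Tgfb1 (-0.13 ± 0.10), the receptor Tgfbr2 (-0.11 ± 0.09) and the signal mediators, of which 0 of 6 were called, gave no call, and neither did the myeloid factor Spi1 (0.18 ± 0.11). The other calls, of the ligand Tgfb2 (1.74 ± 0.47), the integrin chain Itgb8 (1.74 ± 0.42), Bhlhe41 (0.50 ± 0.14) and Maf (-0.32 ± 0.10), were lost for Tgfb2 without aged replicate 3 or young replicate 1 (adjusted p up to 0.143), Itgb8 without aged replicate 3 or young replicate 1 (adjusted p up to 0.0602), Bhlhe41 without aged replicates 1 or 3 or young replicates 2 or 3 (adjusted p up to 0.168) and Maf without aged replicates 1 or 3 or young replicates 1 or 3 (adjusted p up to 0.223). The number of rises was 1 without aged replicate 3 and 2 without young replicate 1. The call of Tgfbr1 was also lost with no filter on low genes. Factors of myeloid precursors and of stimulated myeloid cells rose in 7 of 14 and fell in 2. The Kruppel-like factors Klf2 and Klf4 changed by 1.78 ± 0.29 and 1.29 ± 0.30. Cebpe, a factor of late granulocyte maturation, changed by 1.98 ± 0.57, a call lost without aged replicates 2 or 3 or young replicates 1, 2 or 3 (adjusted p up to 0.165). The rises numbered 3 without aged replicate 1 or young replicate 1 and 2 without aged replicate 3. Plain moderation left Sall1, Mef2c, Tgfbr1, Tgfbr3, Tgfb2, Itgb8, Bhlhe41, Maf, Klf4 and Cebpe without a call.

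Ion channel genes also split in these libraries, and in which cell type each of them changed was not tested. Kcnk13, which encodes the potassium channel THIK-1 that sets the membrane potential and ramification of microglia, had 1260.4, 1437 and 1145 normalized counts in young and 731, 851 and 791 in aged libraries (-0.69 ± 0.14, adjusted p = 0.00168). All 3 aged libraries lay below all young ones. The calcium-permeable channels Trpm2 (0.68 ± 0.11) and Trpv4 (1.52 ± 0.32) and the inward rectifier Kcnj10 (1.25 ± 0.27) rose. In all, 3 of 17 tested channels were higher and 2 lower, the second fall being Kcnd1 (-0.54 ± 0.14), a call lost without aged replicates 1 or 3 or young replicate 1 (adjusted p up to 0.0834). Semaphorins and their receptors gave a similar mixture, with 3 of 25 higher and 4 lower. Beside both lists, 6.43% of all genes tested were called higher and 2.24% lower. Sema6d, a transmembrane semaphorin, had 769.6, 629 and 851 against 136, 439.6 and 263 (-1.57 ± 0.30), and Sema4g 1125, 1369.9 and 1138 against 374, 770.1 and 554 (-1.15 ± 0.23). Both fell in every aged library. The semaphorin receptor Plxnc1 went from 112, 62.3 and 68.1 to 300.0, 335 and 538 (2.26 ± 0.32) and Sema4a, a semaphorin of immune cells, changed by 2.01 ± 0.37. The falls of semaphorin genes and receptors numbered 2 without aged replicates 1 or 3 or young replicates 2 or 3. Trpv4, Kcnd1 and Sema4g gave no call under plain moderation.

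The other large falls were of varied function. Dtx3, a ubiquitin ligase of the Deltex family, had 454, 735 and 466 normalized counts in young and 168, 259 and 249.8 in aged libraries (-1.28 ± 0.25). Ecscr, a small membrane protein first described in endothelium, had 2657, 2721 and 2403 against 1163, 1733 and 903 (-1.08 ± 0.17, adjusted p = 2.0e-04). Npnt, the integrin ligand nephronectin, had 1428, 1198 and 1217 against 577, 738 and 707 (-0.93 ± 0.16). The rule for the largest falls, which named these 3 genes, required each aged library to be below each young one. Klhdc8b (-1.15 ± 0.25), the SR protein kinase Srpk3 (-1.07 ± 0.24), the methyltransferase Mettl21a (-0.97 ± 0.20), the chromatin accessibility subunit Chrac1 (-0.95 ± 0.21), Tmem144 (-0.91 ± 0.19) and the anaphase-promoting complex subunit Cdc26 (-0.88 ± 0.20) completed the 12 largest falls together with Gpr165, Sema6d and Sema4g. The median change of endothelial and mural markers was 0.89 over 6 tested genes, of which 1, Acta2 (2.67 ± 0.58), was called higher. Under plain moderation the call was lost for Sema4g and Klhdc8b.

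Neutrophil and monocyte markers, summed, were higher in every aged library. Of the genes for neutrophil granule proteins and surface proteins, 15 of 18 tested markers of mature cells, 9 of 11 of the secondary and tertiary granules and 4 of 6 of the primary granules were higher and 0 were lower. Retnlg, a resistin-like protein that neutrophils secrete, had 162, 258 and 213 normalized counts in young and 2468, 1446 and 2573 in aged libraries. The formyl peptide receptor Fpr1 had 19.6, 24.1 and 23.6 against 251, 171 and 426 (3.50 ± 0.41), and the collagenase Mmp8 367, 676 and 420.2 against 4294, 2842 and 5201. All these aged libraries exceeded all young ones. Hdc, which makes histamine, changed by 4.18 ± 0.42, the decoy receptor Il1r2 by 3.66 ± 0.44 and the gelatinase Mmp9 by 3.36 ± 0.34. The proteinase Prtn3, a primary granule gene of promyelocytes, had 13.1, 0 and 0 against 161, 76.1 and 108 (5.52 ± 0.81), whereas the call was lost for Elane without aged replicates 1, 2 or 3 or young replicates 2 or 3 (adjusted p up to 0.109) and Mpo without aged replicates 1, 2 or 3 or young replicates 2 or 3 (adjusted p up to 0.11), which changed by 5.93 ± 1.32 and 5.90 ± 1.41. The primary granule rises numbered 2 without aged replicates 1 or 2 or young replicate 3 and 1 without aged replicate 3 or young replicate 2. Csf3r, the receptor of the granulocyte growth factor and also a gene of microglia, was not called, at 9618, 9799.5 and 8381 against 10479, 9799 and 9112 (0.08 ± 0.10). The counts with 1 library left out were 13 to 16 for mature cells and 6 to 9 for the secondary and tertiary granules.

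Of classical monocyte markers, 13 of 15 were higher and 0 lower. Ly6c2, the surface antigen by which these cells are recognised, had 86.8, 53.6 and 51.5 normalized counts in young and 656, 381 and 911 in aged libraries. Gda, guanine deaminase, had 465, 321 and 217 against 4431, 1977 and 3581 (3.30 ± 0.39). None of these genes had overlapping groups. The matrix protein Vcan changed by 4.51 ± 0.84 and the chemokine receptor Ccr2 by 2.35 ± 0.55, with the call lost for Vcan without aged replicates 1 or 3 (adjusted p up to 0.0582) and Ccr2 without aged replicates 1 or 3 or young replicates 1, 2 or 3 (adjusted p up to 0.124). The monocyte rises numbered 8 without aged replicates 1 or 3. Of markers of patrolling monocytes 5 of 8 were called higher, but 1, Pglyrp1, was called in every leave-one-out fit. Markers of macrophages at the borders of the brain gave 1 call among 9, F13a1, which the monocyte list also holds (2.67 ± 0.44). Their summed share was nevertheless higher in every aged library, at 0.01038, 0.00753 and 0.00623% in young and 0.03273, 0.02075 and 0.02771% in aged libraries. The share of patrolling monocyte markers did not overlap either. Among dendritic cell markers the lectin Cd209a went from 0, 3.28 and 3.49 to 26.7, 83 and 117 (4.60 ± 0.88), and 2 of 6 were called.

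Large rises were also measured outside the granulocyte and monocyte lists, several of them from few reads in young libraries. Steap4, a metalloreductase of iron and copper uptake, had 12.1, 0 and 0.874 normalized counts in young and 418, 24 and 133 in aged libraries (5.26 ± 0.97, adjusted p = 0.00279). Cxcl13, a chemokine that attracts B cells, had 6.53, 0 and 0 against 102, 64.5 and 53 (5.19 ± 1.0). Inhba, the activin subunit, had 36.4, 2.19 and 6.99 against 133, 182 and 352 (4.39 ± 0.74). The rule for the largest rises, which named them, required the lowest aged library to be above the highest young one. Single libraries within a group nevertheless differed widely. Lrg1, a glycoprotein of the acute phase and of neutrophil granules, went from 93.3, 26.2 and 15.7 to 1437, 308 and 709 (4.28 ± 0.67), and Met, the receptor of hepatocyte growth factor, from 17.7, 0 and 4.37 to 169, 40.5 and 156 (4.47 ± 0.82). Phldb2 (5.24 ± 0.74), the zinc finger factor Klf5 (4.55 ± 0.85) and the matrix protein Tnr (4.24 ± 0.87) rose as well. Among the 12 largest rises was also Mrgpra2b (4.96 ± 0.79), which the list of mature neutrophils holds. Its reads are uncertain, since 81.2% of its 50-base words occur in other genes, chiefly its paralog.

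A cluster of interferon-induced nucleic acid sensors on chromosome 1, the p200 family, was mostly higher in aged libraries. Its 11 tested members lie within chr1:173350879-174031810 (GRCm38), where 8 were higher and 1, Aim2, was lower, with a median of 2.22. Proteins of this family bind DNA in the nucleus and cytosol, and their genes are known to be switched on through the interferon-stimulated response element. RefSeq (GRCm38.p6) holds promoters of 300 bases for 10 of the 11. In 8 of these 10 genes a promoter contains GAAANNGAAA or its reverse complement TTTCNNTTTC, against 3.99% of all 27025 genes with a promoter. The windows of 60 bases around the match are shown, 5′ to 3′ on the strand of the gene, with the match in capitals, for 5 members that were higher and for Ifi208, which was not called. Ifi205, not called either, holds 2 matches, Mndal, called higher, holds matches too, and neither Ifi209, called higher, nor Aim2 holds one.
Ifi207 (chr1:173741816-173741875, minus strand): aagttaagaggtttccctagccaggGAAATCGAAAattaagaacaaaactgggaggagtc
Ifi211 (chr1:173913049-173913108, minus strand): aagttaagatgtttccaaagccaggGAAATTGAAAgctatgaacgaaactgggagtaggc
Ifi206 (chr1:173491324-173491383, minus strand): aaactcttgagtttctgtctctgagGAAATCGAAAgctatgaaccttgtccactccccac
Ifi203 (chr1:173942493-173942552, minus strand): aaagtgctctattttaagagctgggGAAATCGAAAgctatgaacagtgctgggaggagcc
Ifi213 (chr1:173599311-173599370, minus strand): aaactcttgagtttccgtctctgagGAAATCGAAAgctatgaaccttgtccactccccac
Ifi208 (chr1:173673582-173673641, plus strand): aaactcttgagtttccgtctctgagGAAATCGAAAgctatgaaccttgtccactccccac

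The match began 41 bases before the start of Ifi207, 37 before that of Ifi211, 40 before that of Ifi206, 35 before that of Ifi203, 73 before that of Ifi213 and 58 before that of Ifi208. The windows of Ifi213 and Ifi208 are the same letter for letter, and a window of Mndal, not shown, is that of Ifi203. Ifi207 had 118, 87.5 and 61.1 normalized counts in young and 771, 564 and 594 in aged libraries, so the groups lay far apart (2.88 ± 0.29, adjusted p = 1.6e-06). Ifi204 had 204, 286 and 147 against 1037, 774 and 1263 (2.29 ± 0.27), Mndal 42, 20.8 and 15.7 against 107, 100.1 and 144 (2.22 ± 0.45), and Ifi211 24.3, 17.5 and 16.6 against 178, 90.5 and 129 (2.67 ± 0.54). Aged libraries were above young ones in each. Ifi206 (1.94 ± 0.48), Ifi203 (1.86 ± 0.46), Ifi209 (1.37 ± 0.34) and Ifi213 (2.56 ± 0.72) were higher and Aim2 (-0.61 ± 0.17), the inflammasome sensor, was lower. Their call was lost for Ifi206 without young replicate 3 (adjusted p up to 0.0544), Ifi203 without aged replicate 3 or young replicates 2 or 3 (adjusted p up to 0.0826), Ifi209 without aged replicates 1 or 3 or young replicates 2 or 3 (adjusted p up to 0.111), Ifi213 without aged replicates 1, 2 or 3 or young replicate 3 (adjusted p up to 0.137) and Aim2 without aged replicates 1 or 3 or young replicates 1, 2 or 3 (adjusted p up to 0.16). The rises of the family numbered 5 without aged replicate 3 and 4 without young replicate 3. Ifi208, with the same promoter window as Ifi213, was not called, at 1.87, 14.2 and 0 against 0, 28.8 and 18.5 (1.24 ± 1.36, adjusted p = 0.67). Assignment of reads is uncertain for Ifi211, Ifi209, Ifi206, Ifi208 and Ifi204, of whose 50-base words 72.8, 33.7, 25.6, 20.8 and 20% occur in other genes. A match of these letters is a description of the window and not a measured binding site. The call of Ifi203, Ifi209, Ifi213 and Aim2 was lost under plain moderation.

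Beyond that cluster, the calls among interferon genes lay mostly in targets and factors. Of 35 tested targets 13 were higher and 0 lower, with a median of 1.34. Ifitm2, a membrane protein that blocks virus entry, had 29.9, 19.7 and 25.3 normalized counts in young and 573, 237 and 318 in aged libraries (3.78 ± 0.35, adjusted p = 2.2e-07). The radical enzyme Rsad2, viperin, had 97, 36.1 and 58.5 against 203, 243 and 214 (1.88 ± 0.36), and the synthetases Oas3 and Oasl2, which sense double-stranded RNA or derive from such sensors, changed by 3.07 ± 0.42 and 1.98 ± 0.26. Cmpk2 (3.17 ± 0.42) and the nuclear body protein Sp100 (1.69 ± 0.18) rose too. Factors were called higher in 4 of 6, with Irf7 at 189, 163 and 142 against 462, 326 and 345 (1.18 ± 0.27), and Stat2 changed by 0.60 ± 0.18, with the call lost for Stat2 without aged replicates 1 or 3 or young replicates 1 or 3 (adjusted p up to 0.155). Of 7 receptors and kinases, 0 were higher and 1 was lower, the interferon gamma receptor Ifngr1 (-0.35 ± 0.09), while Ifnar1 was at -0.01 ± 0.13. Among inhibitors 0 of 3 were called. Some classic targets were not called, and their libraries spread widely within a group. Isg15 had 14.9, 2.19 and 12.2 against 84.4, 14.4 and 57.8 (2.28 ± 0.78, adjusted p = 0.0741), and Ifit1 49.4, 73.3 and 23.6 against 111, 108 and 151. The same promoter letters were present in 14 of 29 tested targets with a RefSeq promoter and in 5 of the 10 called higher. They were present in 7.09% of 790 genes called higher and in 3.01% of 266 called lower, against 3.92% of tested genes. Of the other motifs searched on both strands, the PU.1 letters GAGGAAGT were in 6.58% of genes called higher, 6.39% of those called lower and 3.88% of tested genes, and the C/EBP letters TTGCNNAAT in 3.16, 2.63 and 2.07%. Without aged replicate 3 the called rises of the whole interferon list fell from 19 to 12. Assignment is uncertain for Ifitm2 (48.5% of its 50-base words occur in other genes). With plain moderation Irf7, Stat2 and Ifngr1 lost the call.

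Another family of interferon-responsive genes, the Schlafens on chromosome 11 (chr11:82951349-83215154), was called higher in 4 of 8. Slfn2, which keeps lymphocytes and monocytes quiescent, had 888, 693 and 639 normalized counts in young and 2669.9, 2079 and 2944 in aged libraries (1.79 ± 0.15, adjusted p = 1.0e-07), with a wide gap between the groups. Slfn4 had 185, 79.8 and 55.9 against 1071, 503 and 766 (2.97 ± 0.40), and Slfn1 changed by 3.36 ± 0.51. Slfn5 changed by 2.16 ± 0.51, a call lost without aged replicates 1 or 3 or young replicates 1, 2 or 3 (adjusted p up to 0.111). Guanylate-binding and immunity-related GTPases gave 2 calls among 14, both higher, against 6.43% of all genes tested. They were Gbp2 (1.45 ± 0.33) and Gbp7 (0.76 ± 0.18), and the call was lost for Gbp2 without aged replicate 3 (adjusted p up to 0.0506) and Gbp7 without aged replicate 1 or young replicate 2 (adjusted p up to 0.0696). Plain moderation left Gbp2 and Gbp7 without a call.

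Several antigen presentation genes rose. H2-D1, a classical class I heavy chain, had 6897, 5502 and 5626 normalized counts in young and 13945, 9770.0 and 13500.5 in aged libraries (1.04 ± 0.14), and its relative H2-K1 3604, 2789 and 2810.2 against 5717, 4175 and 5148 (0.71 ± 0.13). Both were higher in every aged library, and 4 of 18 tested class I and immunoproteasome genes were called higher. The light chain B2m changed by 0.44 ± 0.10 and the transactivator Nlrc5 by 1.24 ± 0.32, with the call lost for B2m without aged replicate 3 (adjusted p up to 0.0543) and Nlrc5 without aged replicates 1 or 3 or young replicates 2 or 3 (adjusted p up to 0.0866). For class II, 4 of 14 were higher and 1 lower. The invariant chain Cd74 had 1173, 853 and 573 against 2092, 2306 and 2218 (1.41 ± 0.22) and H2-Ab1 changed by 0.95 ± 0.17, while H2-Eb1 and H2-Aa changed by 1.18 ± 0.29 and 1.16 ± 0.34, with the call lost for H2-Eb1 without aged replicate 2 or young replicates 2 or 3 (adjusted p up to 0.0732) and H2-Aa without aged replicates 2 or 3 or young replicates 2 or 3 (adjusted p up to 0.168). The costimulator Cd86 fell, from 2885, 3064 and 2869.6 to 1524, 2133 and 1936 (-0.67 ± 0.12). The class I rises numbered 2 without aged replicate 3, and the class II rises 2 without aged replicate 2 or young replicates 2 or 3. H2-K1, B2m, Nlrc5, H2-Eb1 and H2-Aa gave no call under plain moderation.

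Calls in the interleukin 1 family were among its ligands and receptors. Il1b, the inflammatory ligand, had 115, 43.7 and 69 normalized counts in young and 880.0, 366 and 387 in aged libraries (2.81 ± 0.45). Its antagonist Il1rn had 75.6, 32.8 and 82.1 against 280.0, 266 and 429.7 (2.41 ± 0.39), and the subunits of the interleukin 18 receptor, Il18r1 and Il18rap, changed by 3.94 ± 0.90 and 2.74 ± 0.30. These groups did not overlap. Of 10 inflammasome genes 0 were higher and 1, the pore-forming protein Gsdmd, was lower (-0.37 ± 0.12), a call lost without aged replicates 1 or 3 or young replicates 1, 2 or 3 (adjusted p up to 0.19). The TNF and NF-kappaB list gave 2 calls among 23, Tnf (1.51 ± 0.45) and Tnfsf14 (3.37 ± 0.84), and the call was lost for Tnf without aged replicates 1 or 3 or young replicates 1, 2 or 3 (adjusted p up to 0.199) and Tnfsf14 without aged replicates 1 or 3 (adjusted p up to 0.0679). Chemokine receptors were called higher in 4 of 11, with the inflammatory receptor Ccr1 at 139.9, 148 and 130.2 against 849, 304 and 730.1 (2.04 ± 0.29) and Cxcr4, a retention receptor of marrow cells, at 2.23 ± 0.37. Of 15 ligands 4 were higher, and of these Cxcl13 was called in every leave-one-out fit. Ccl3 and Cxcl10 changed by 1.33 ± 0.35 and 3.34 ± 1.02, with the call lost for Ccl3 without aged replicates 1 or 3 or young replicate 3 (adjusted p up to 0.0928) and Cxcl10 without aged replicates 1, 2 or 3 or young replicates 1 or 3 (adjusted p up to 0.205). The chemokine rises, receptors and ligands together, numbered 4 without aged replicates 1 or 3 or young replicate 3 and 5 without young replicate 1. Toll-like receptors and adaptors gave 2 calls among 26, the endosomal RNA receptor Tlr8 (2.93 ± 0.50) and the inhibitory kinase Irak3 (1.64 ± 0.25). The counts of this list and of the TNF and NF-kappaB list lay near the share of all genes called higher, 6.43%. Under plain moderation the call was lost for Gsdmd, Tnf, Tnfsf14, Ccl3 and Cxcl10.

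Within the TREM receptors the 2 best known members moved in opposite directions. Trem1 (chr17:48232768-48246924, plus strand), which amplifies inflammatory signals in neutrophils and monocytes, had 25.2, 7.65 and 8.74 normalized counts in young and 269, 188 and 237 in aged libraries (4.14 ± 0.45, adjusted p = 1.7e-06). Trem2, which senses lipids and apolipoproteins on microglia, had 8175, 7674 and 7907 against 5551, 5638 and 4826 (-0.57 ± 0.11, adjusted p = 0.00113). Neither gene had overlapping groups. Both signal through the adaptor Tyrobp, which was not called (-0.18 ± 0.13). Treml2 rose (1.49 ± 0.25), and the kinase Syk (0.35 ± 0.11) and Treml4 (1.56 ± 0.49) were higher, with the call lost for Syk without aged replicates 1 or 3 or young replicates 1, 2 or 3 (adjusted p up to 0.221) and Treml4 without aged replicates 1, 2 or 3 or young replicates 2 or 3 (adjusted p up to 0.244). The call of Trem2, Syk and Treml4 was lost under plain moderation.

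Of 18 paired activating and inhibitory receptors of myeloid cells 9 were higher and 2 lower, with a median of 1.57. Cd300lf, a receptor for sphingomyelin, had 144, 106 and 66.4 normalized counts in young and 1039, 419 and 842 in aged libraries (2.82 ± 0.31). Cd300ld had 148, 113 and 64.6 against 712, 446 and 497 (2.39 ± 0.32), and Pilra, an inhibitory receptor for sialylated proteins, 359, 125 and 188 against 754, 506 and 716 (1.67 ± 0.29). All 3 were higher in each aged library. Pirb, the inhibitory immunoglobulin-like receptor for class I molecules, changed by 2.48 ± 0.27. The falls were Siglech and Cd300c2 (-0.47 ± 0.13), a call lost without aged replicate 3 or young replicates 1 or 2 (adjusted p up to 0.148), and the sialic acid receptor Cd33 was not called (-0.28 ± 0.10). Among C-type lectins 5 of 13 were higher. Clec4e, Mincle, a receptor for mycobacterial glycolipid and dead cells, had 25.2, 28.4 and 44.6 against 364, 149 and 349 (3.03 ± 0.39), and Clec7a, the beta-glucan receptor Dectin-1, 341, 369.5 and 214 against 704, 791 and 832 (1.37 ± 0.25). The lectin rises numbered 3 without aged replicates 1 or 3. In the MS4A family Ms4a4a went from 54.1, 13.1 and 6.99 to 239, 105 and 136 (3.04 ± 0.60), and 2 of 8 were called, the second being Ms4a6c (1.33 ± 0.31), a call lost without aged replicate 1 or young replicate 2 (adjusted p up to 0.0587). Pirb reads are uncertain, with 34.0% of its 50-base words in other genes. With plain moderation Cd300c2 and Ms4a6c lost the call.

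The genes of disease-associated microglia, a state described around amyloid plaques, were higher in 14 of 26 and lower in 1, Trem2. Lgals3, galectin-3, had 171, 82 and 91.7 normalized counts in young and 984, 719 and 814 in aged libraries (2.92 ± 0.29). The GPI-anchored antigen Cd52 had 257, 229 and 285 against 754, 561 and 615 (1.32 ± 0.22), and Apoe, the lipid carrier, 12995, 12409 and 8336 against 17832, 18208 and 22041 (0.80 ± 0.14). The receptor kinase Axl had 382, 354 and 328 against 536, 959 and 1036 (1.19 ± 0.26). Each of these 4 was higher in every aged library, whereas other genes of the same state gave no call, among them Cst7 (1.5 ± 0.53), Gpnmb (1.04 ± 1.24), Cd9 (-0.29 ± 0.13), Cd63 (0.30 ± 0.18) and Igf1 (-0.66 ± 1.13). Spp1 and Lpl changed by 2.13 ± 0.56 and 0.86 ± 0.24, with the call lost for Spp1 without aged replicates 1 or 3 or young replicates 1 or 3 (adjusted p up to 0.0763) and Lpl without aged replicates 2 or 3 or young replicates 1, 2 or 3 (adjusted p up to 0.2). The rises numbered 9 without aged replicate 1 and 8 without aged replicate 3 or young replicate 3. Lysosomal genes gave 2 rises and 3 falls among 32, where 6.43% of all genes tested were called higher and 2.24% lower. The intracellular aspartic protease Ctse rose (2.62 ± 0.55) and the acid ceramidase Asah1 fell (-0.39 ± 0.09), while the abundant cathepsins Ctsd, with 42848, 39537 and 46309 against 47379, 36449.9 and 45461, and Ctsb, with 27154, 24345 and 25668 against 29073, 22199 and 26450.1, overlapped. Reads of Ctsd are uncertain, since 32.4% of its 50-base words occur in another gene. Plain moderation left Trem2, Axl, Spp1, Lpl and Asah1 without a call.

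Eicosanoid genes moved in both directions. Of the 24 tested, 8 were higher and 5 lower. On the lipoxygenase side, Alox5, which starts leukotriene synthesis, had 806, 821 and 750.4 normalized counts in young and 1957, 1385 and 1494 in aged libraries (1.01 ± 0.17), and the receptor of leukotriene B4, Ltb4r1, had 45.7, 6.56 and 20.1 against 176, 93.3 and 195 (2.93 ± 0.66). On the prostaglandin side, Hpgds, the haematopoietic prostaglandin D synthase, had 7588, 7240.0 and 6788 against 4869.9, 5739.8 and 4452 (-0.53 ± 0.10). The prostaglandin-degrading enzyme Hpgd (-0.73 ± 0.11) and the thromboxane synthase Tbxas1 (-0.48 ± 0.11) fell, while the prostaglandin E receptor Ptger4 (2.58 ± 0.45) and Pla2g7, which inactivates platelet-activating factor (2.61 ± 0.41), rose. The partner of Alox5, Alox5ap (0.40 ± 0.12), and Lta4h (0.78 ± 0.22), which completes leukotriene B4, were higher and the constitutive cyclooxygenase Ptgs1 (-0.42 ± 0.10) lower, with the call lost for Alox5ap without aged replicates 1 or 3 or young replicates 1, 2 or 3 (adjusted p up to 0.222), Lta4h without aged replicates 1 or 3 or young replicates 2 or 3 (adjusted p up to 0.152) and Ptgs1 without aged replicate 1 or young replicate 3 (adjusted p up to 0.0556). The rises numbered 4 without aged replicates 1 or 3 or young replicate 2, and the falls 3 without aged replicate 1 or young replicate 3. The inducible cyclooxygenase Ptgs2 was not called (1.23 ± 1.49, adjusted p = 0.705). Ltb4r1, Hpgds, Tbxas1, Alox5ap, Lta4h and Ptgs1 gave no call under plain moderation.

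Genes at several steps of glucose use rose. Of 37 tested genes of glycolysis and hypoxia 14 were higher and 1 lower, with a median of 0.41. The transporter Slc2a3 had 214, 356 and 281 normalized counts in young and 1282, 998 and 1679 in aged libraries (2.21 ± 0.25). Further down the pathway, Gpi1 had 1495, 1309.8 and 1496 against 2846, 2267 and 2943 (0.90 ± 0.13) and the platelet-type phosphofructokinase Pfkp 207, 288 and 234 against 1100.0, 494 and 743 (1.62 ± 0.24). These groups did not overlap. Pyruvate kinase Pkm (1.09 ± 0.11), enolase Eno1 (0.87 ± 0.14) and lactate dehydrogenase Ldha (0.88 ± 0.15) rose as well, whereas Gapdh (0.12 ± 0.29), Hk2 (0.11 ± 0.10), Hif1a (0.10 ± 0.11) and Slc2a5, the fructose transporter of microglia (-0.03 ± 0.10), were not called. Epas1, the hypoxia factor HIF-2alpha, had 79.3, 149.8 and 220.1 against 682, 403 and 489.9 (1.89 ± 0.37). The fall was in Pdk1 (-0.43 ± 0.13), a call lost without aged replicates 1 or 3 or young replicates 1, 2 or 3 (adjusted p up to 0.251). Reads of Pkm, Eno1 and Gapdh are uncertain, with 25.8, 26 and 24.7% of their 50-base words in other genes. Under plain moderation the call was lost for Pdk1.

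Genes for handling oxidants, iron and lipid followed in part. Of 28 oxidant genes 9 were higher and 0 lower. Gsr, glutathione reductase, had 691, 641 and 624 normalized counts in young and 3189.9, 2031 and 3237 in aged libraries (2.08 ± 0.17, adjusted p = 2.2e-07), and Cybb, the catalytic subunit of the phagocyte NADPH oxidase, 1376, 765 and 578 against 3385, 4243 and 6213 (2.40 ± 0.37). Prdx6 (1.32 ± 0.21) and the oxidase regulator Rac2 (1.02 ± 0.15) rose too. Among iron and haem genes 7 of 25 were higher and 1 lower. These rises include Lcn2 and Ltf, which the neutrophil granule list also holds, and Hp, which the monocyte list also holds. Haem oxygenase Hmox1 had 232, 224 and 273 against 1063, 440.3 and 664 (1.48 ± 0.28), the ferritin heavy chain Fth1 (0.69 ± 0.15) was higher and the iron exporter Slc40a1 (-0.55 ± 0.14) lower, with the call lost for Fth1 without aged replicate 3 (adjusted p up to 0.0524) and Slc40a1 without aged replicate 1 or young replicate 3 (adjusted p up to 0.0999). Lipid genes were higher in 11 of 34 and lower in 1. The lipid droplet coat protein Plin2 had 251, 255 and 275 against 838, 435 and 807 (1.35 ± 0.21), and Dgat2, which makes triglyceride, 42, 14.2 and 20.1 against 150.0, 91.9 and 158 (2.45 ± 0.47). The cholesterol exporter Abcg1 fell (-0.47 ± 0.10). The lipid rises numbered 5 without aged replicates 1 or 3 and 6 without young replicate 2 and 7 without young replicate 3, and the iron rises 4 without aged replicate 3. The call of Fth1, Slc40a1 and Abcg1 was lost under plain moderation.

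In a list of actin-binding, filament and annexin-related proteins all 16 tested were called higher, with a median of 1.76 and 11 called in every leave-one-out fit. The list was chosen with earlier results of these data known and holds no cytoplasmic actin. Its count therefore describes these members and not the class. S100a11 (chr3:93520488-93526287, plus strand), a calcium-binding partner of annexins, had 166, 159.6 and 193 normalized counts in young and 2280.0, 1492 and 2311 in aged libraries (3.52 ± 0.22, adjusted p = 1.2e-08). The actin crosslinker Tagln2 had 334, 243 and 244 against 918, 582 and 830.5 (1.49 ± 0.19), filamin Flna 4566, 4042 and 3837 against 10942, 9721 and 11987 (1.39 ± 0.15), and plastin Lcp1 10344, 9592 and 10438 against 17719.7, 13941 and 18336 (0.71 ± 0.10). In each the groups were apart. The intermediate filament Vim changed by 2.96 ± 0.47, annexins Anxa1 and Anxa2 by 2.55 ± 0.39 and 3.02 ± 0.38, and talin Tln1 by 0.38 ± 0.09. The call was lost for Coro1a without aged replicate 3 or young replicate 2 (adjusted p up to 0.0616), Emp3 without aged replicate 3 or young replicate 3 (adjusted p up to 0.0879), Lmna without aged replicates 1 or 3 (adjusted p up to 0.072), Plek without aged replicates 1 or 3 or young replicates 2 or 3 (adjusted p up to 0.117) and Ahnak without aged replicates 1 or 3 or young replicates 2 or 3 (adjusted p up to 0.105), which changed by 0.42 ± 0.10, 1.19 ± 0.30, 2.03 ± 0.49, 0.34 ± 0.10 and 2.80 ± 0.62. Of the adhesion receptors 8 of 17 were higher. Vcam1 had 154, 59 and 141 against 424, 420.4 and 646 (2.15 ± 0.32), and the hyaluronan receptor Cd44 and the integrin chain Itgb7 changed by 2.86 ± 0.36 and 2.91 ± 0.52, whereas the integrins Itgb1 (-0.01 ± 0.10) and Itga6 (-0.25 ± 0.10) were not called. The classical monocyte list shares genes such as Cd44 and Itga4 with this list, and its markers were higher in the same libraries, whose part in these rises was not tested. Without aged replicate 3 the 24 rises of the whole list fell to 15. S100a11 reads are uncertain, with 41.1% of its 50-base words in other genes. With plain moderation Tln1, Coro1a, Emp3, Lmna and Plek lost the call.

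**Figure D4:**
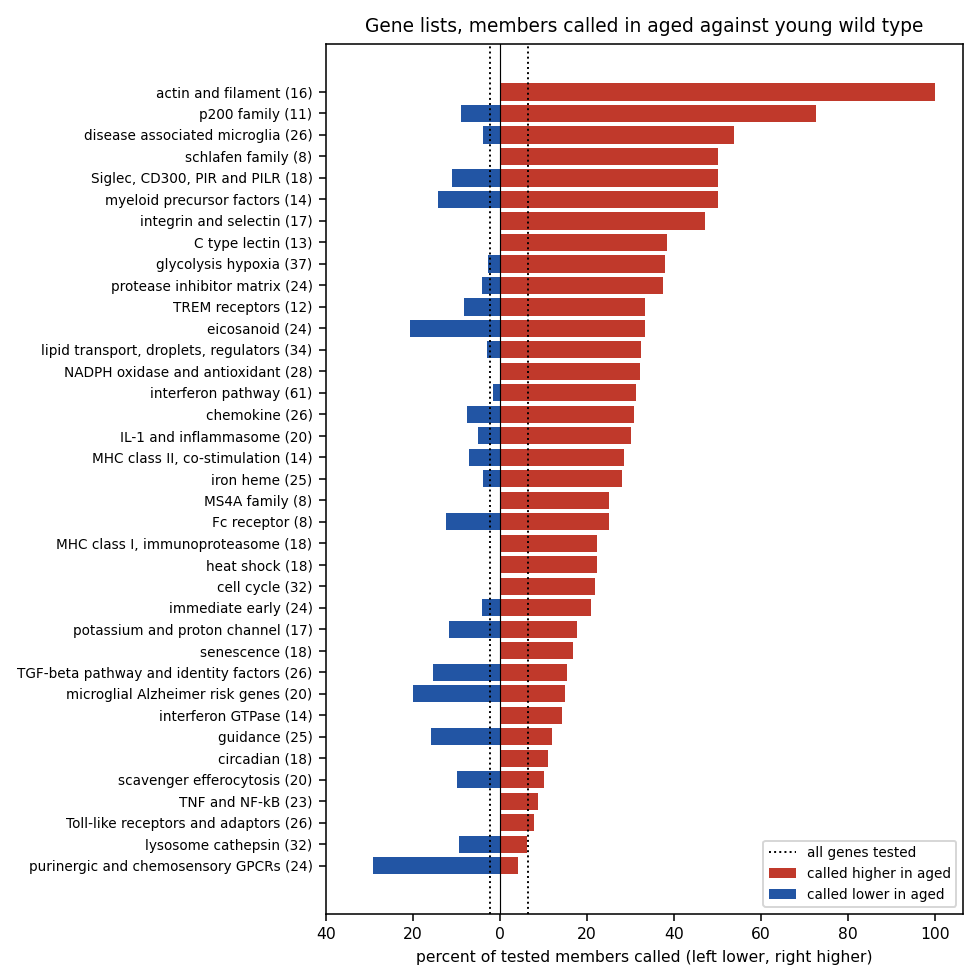
Percent of tested members called in each gene list other than the cell type markers, higher (right) or lower (left) in aged wild type, with dotted lines at the share of all tested genes, 6.43% higher and 2.24% lower. The list of actin-binding and filament proteins (16 of 16) and the p200 family (8 of 11) reach furthest to the right, and the G protein-coupled receptors (7 of 24) furthest to the left. The lists were chosen with earlier results of these data known.

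Extracellular proteases and their inhibitors were higher in 9 of 24 and lower in 1. These rises include Mmp8, Mmp9 and Slpi, which the neutrophil lists also hold. The metalloproteinase-disintegrins Adam19 and Adam8 both rose. Adam19 had 60.6, 96.2 and 91.7 normalized counts in young and 1056, 453 and 742 in aged libraries (3.11 ± 0.27), and Adam8 118, 183 and 167 against 1412, 573 and 1398 (2.76 ± 0.37), with the aged libraries above the young. The neutrophil elastase inhibitor Serpinb1a changed by 2.59 ± 0.44. Scavenger and efferocytosis genes gave 2 rises and 2 falls among 20, where all genes tested gave 6.43% higher and 2.24% lower. Among them Msr1, a scavenger receptor for modified lipoprotein and amyloid, was at 47.6, 30.6 and 33.2 against 298, 155 and 185 (2.45 ± 0.37). The falls were Havcr2 (-0.40 ± 0.10) and the inhibitory receptor Sirpa (-0.33 ± 0.09), with the call lost for Havcr2 without aged replicate 1 or young replicate 3 (adjusted p up to 0.0918) and Sirpa without aged replicates 1 or 3 or young replicates 1 or 3 (adjusted p up to 0.132). Of Fc receptors 2 of 8 were higher, Fcgr4 (1.41 ± 0.33) and Fcgr2b (0.37 ± 0.12), and 1, Fcrls, given above, was lower. All genes tested gave 6.43% higher and 2.24% lower. The call was lost for Fcgr4 without aged replicate 1 or young replicate 2 (adjusted p up to 0.079) and Fcgr2b without aged replicates 1 or 3 or young replicates 1, 2 or 3 (adjusted p up to 0.255). With 1 library left out the Fc receptor rises numbered 0 to 2. Plain moderation left Havcr2, Sirpa, Fcgr4, Fcgr2b and Fcrls without a call.

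Calls among genes of proliferation, arrest, acute stimulation and stress differed in how many were kept with each library left out. Of 32 cell cycle genes 7 were called higher, but only the mitotic motors Cenpe (1.52 ± 0.31) and Kif11 (1.79 ± 0.38) were called in every leave-one-out fit. The rises numbered 2 without aged replicate 3 and 4 without young replicates 2 or 3. Of 10 genes in the arrest part of a senescence list 3 were higher. Lmnb1, the lamin whose loss and not rise marks senescent cells, was at 764, 473 and 543 against 1867, 1177 and 1708 (1.42 ± 0.23). The cyclin-dependent kinase inhibitor Cdkn2d changed by 1.75 ± 0.35. As the list holds genes for which senescence has opposite directions, its count is not a measure of arrest. Of 8 secreted senescence genes 0 were called. Immediate early genes, which respond within minutes to handling of cells, were higher in 5 of 24 and lower in 1, and 5 of these 6 calls were made in every leave-one-out fit. Fosl2 had 464, 387 and 462 against 1738, 1149 and 1742 (1.79 ± 0.17), Ier2 151, 163 and 125 against 660.0, 294 and 467 (1.62 ± 0.29), and Rhob 10130.5, 12444 and 14794 against 8352, 7106 and 8063 (-0.65 ± 0.13). Of 18 chaperones 4 were called higher and 0 of these in every leave-one-out fit, and they numbered 0 without aged replicate 1 and 1 without aged replicate 3 or young replicate 2 and 2 without young replicate 1. Of 18 clock genes 2 were higher, against 6.43% of all genes tested. The repressor Bhlhe40 was at 78.4, 44.8 and 48.9 against 270.0, 157 and 233 (1.93 ± 0.39). Per2 changed by 1.48 ± 0.39, a call lost without aged replicates 1 or 3 or young replicates 2 or 3 (adjusted p up to 0.104). Cenpe, Kif11, Rhob and Per2 gave no call under plain moderation.

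Mouse counterparts of Alzheimer risk genes that microglia express moved both ways, with 3 of 20 higher and 4 lower and a median of 0.02. Sorl1 (chr9:41964720-42124297, minus strand), a sorting receptor of endosomes that binds the amyloid precursor protein, had 2589.8, 2041 and 2158 normalized counts in young and 10014, 6613 and 9457 in aged libraries. Every aged library was far above every young one, with a change of 1.93 ± 0.14 (limma adjusted p = 1.0e-07). Tmem106b, a lysosomal membrane protein, had 2549, 2411 and 2606 against 1406, 1860.5 and 1824 (-0.58 ± 0.12). Trem2, Apoe and Mef2c are given above. The membrane-bending protein Bin1 (-0.31 ± 0.08) and Rin3 (0.32 ± 0.10) were called lower and higher, with the call lost for Bin1 without aged replicate 3 or young replicates 1 or 3 (adjusted p up to 0.113) and Rin3 without aged replicates 1 or 3 or young replicates 1, 2 or 3 (adjusted p up to 0.2). Clu, which astrocytes also express, had 243, 289.7 and 468 against 2071, 1147 and 1664 and was not called (2.30 ± 0.67, adjusted p = 0.0785), although each aged library was above each young one. Plcg2 (0.19 ± 0.09), Inpp5d (-0.17 ± 0.08) and Abca7 (0.29 ± 0.14) were not called. Under plain moderation the call was lost for Trem2, Mef2c, Tmem106b, Bin1 and Rin3.

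Aging was also compared with aging in the libraries labelled Trem1-/-, with which it shares no library. There 275 genes were called (1.71%), 173 higher (1.08%) and 102 lower (0.634%). The 2 comparisons called 116 genes in the same direction (0.721% of those tested), 96 higher and 20 lower, and 12 in opposite directions. The shared count was 55 without aged wild type replicate 3, 58 and 48 without aged Trem1-/- replicates 1 and 2, 43 and 52 without young Trem1-/- replicates 2 and 3, 5 under plain moderation and 229 with DESeq2. These 116 are 8.32% of the wild-type calls and 42.2% of the calls in the labelled Trem1-/- libraries. Of the wild-type rises 65.9% were above 0 in the labelled Trem1-/- comparison, against 50.05% of all genes, and of the falls 68.6% were below 0. Genes that changed alike included the RNA-binding protein Pcbp3, with 44.8, 51.4 and 85.6 normalized counts in young and 413, 364 and 486 in aged wild type (2.82 ± 0.38) and a change of 2.92 ± 0.38 in libraries labelled Trem1-/-. The motor Myo5b changed by 2.48 ± 0.46 and 2.60 ± 0.46, the thyroid hormone transporter Slco1c1 by 2.64 ± 0.52 and 2.42 ± 0.52, the laminin chain Lamb1 by 2.93 ± 0.66 and 3.31 ± 0.66, and the nuclear receptor Rxrg by 3.37 ± 0.75 and 2.96 ± 0.75. Among the 10 largest shared changes were also Cfap65 and Dnah9, which encode parts of motile cilia, with the wild-type call lost for Cfap65 without aged replicates 1, 2 or 3 or young replicate 1 (adjusted p up to 0.139) and Dnah9 without aged replicates 1 or 3 or young replicates 1 or 2 (adjusted p up to 0.128). Markers of choroid plexus and ependyma were called higher in 3 of 7 in wild type. These rises numbered 0 without aged replicates 1 or 3 and 1 without young replicates 1 or 2. The call of Lamb1, Cfap65 and Dnah9 was lost under plain moderation.

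The aging change itself differed between wild type and labelled Trem1-/- for 408 genes by the interaction test (2.54%), 344 with the larger value and 64 with the smaller value in wild type. Of them 299 were called higher and 40 lower with age in wild type, a call that uses the same wild-type values as the difference. Under plain moderation 5 genes passed. With single libraries left out the count was 235, 790 and 197 without aged wild type replicates 1, 2 and 3, 248 without young wild type replicate 2, 221 and 251 without aged Trem1-/- replicates 2 and 3, and 251 and 203 without young Trem1-/- replicates 2 and 3. The smallest p belonged to Tagln2, which changed by 1.49 ± 0.19 in wild type and -0.92 ± 0.19 in libraries labelled Trem1-/-, a difference of 2.41 ± 0.27 (limma adjusted p = 5.7e-05). For Ifitm2 the values were 3.78 ± 0.35 and -0.43 ± 0.35, with a difference of 4.21 ± 0.49. For S100a11 they were 3.52 ± 0.22 and 0.67 ± 0.22 (2.85 ± 0.31), for Sorl1 1.93 ± 0.14 and 0.10 ± 0.14 (1.83 ± 0.20), for Slfn2 1.79 ± 0.15 and 0.04 ± 0.15 (1.75 ± 0.21) and for Gsr 2.08 ± 0.17 and 0.01 ± 0.17 (2.07 ± 0.24). In libraries labelled Trem1-/- Tagln2 was called lower with age and the other 5 were not called. By list, the difference passed for 8 of 15 classical monocyte markers, whose median change was -0.42 in libraries labelled Trem1-/-. It passed for 7 of 18 markers of mature neutrophils (median 0.67) and for 2 of 6 primary granule genes (0.36). It also passed for 10 of 61 interferon genes (-0.09), for 3 of 11 p200 genes (-0.12) and for 1 of 13 microglia-defining genes (-0.26). For the secondary and tertiary granule genes of neutrophils it passed for 0 of 11. Their median change was 2.889 in wild type and 1.198 in libraries labelled Trem1-/-, where 0 of them were called. For markers of choroid plexus and ependyma it passed for 0 of 7, with medians of 1.967 and 2.186. For the microglial receptors P2ry12 and Siglech the differences were -0.37 ± 0.12 and -0.33 ± 0.13, and for Gpr165 -1.02 ± 0.28 (adjusted p = 0.0517), none of which passed. Under plain moderation the differences of Gsr, S100a11, Sorl1 and Slfn2 lost the call (adjusted p 0.0610 to 0.0642), and those of Tagln2 and Ifitm2 kept it.

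**Figure D5:**
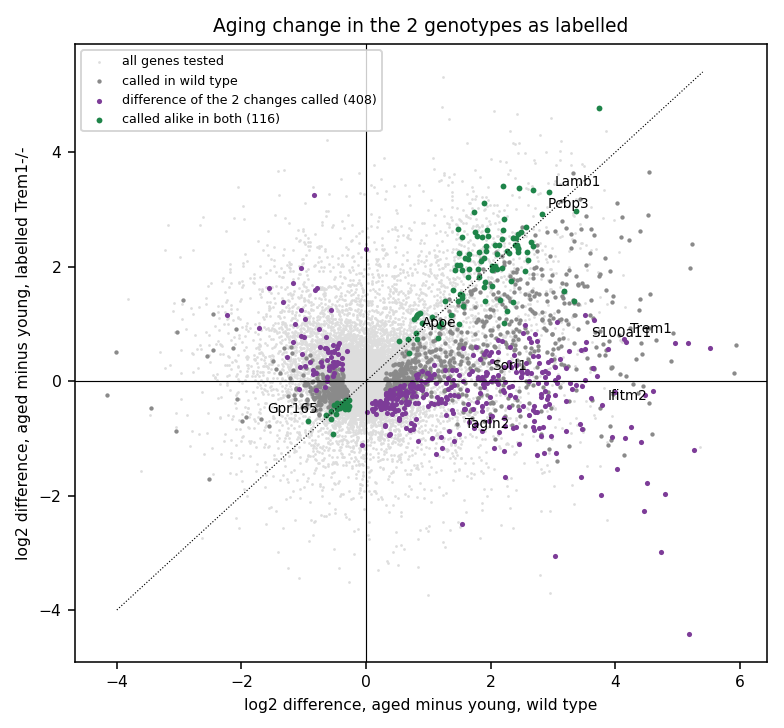
Log2 aging change in libraries labelled Trem1-/- (vertical) against that in wild type (horizontal), 1 dot per gene, with genes whose changes differ in purple, the 116 called alike in both in green and other wild-type calls in dark grey. Of the 408 purple genes 299 were called higher with age in wild type and lie on the right.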

How the data were processed

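RNA of primary mouse brain microglia was sequenced in 12 libraries of the aging experiment, of which 6 are wild type. Per the submitters' processing notes, the authors used fastp, HISAT2 2.0.5, featureCounts 1.5.0-p3, DESeq2 1.20.0 and the build GRCm38; annotation release and strandedness were not given in the sources used here, so antisense and overlapping genes cannot be told apart. The authors deposited a signal per gene and library, in which read counts had been scaled by a factor for each library. Whole reads could be recovered within a tolerance of 0.05 read for 100% of nonzero values, and they served edgeR 4.0.16 and DESeq2 1.42.0 as alternatives. The deposited fold changes and p-values were not used.

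Genes with a mean of at least 10 over the 12 libraries, 16086 of 54532, were log2-transformed after adding 1 to the normalized count. They were tested in 1 model of the 4 groups with limma 3.58.1 under R 4.3.3, using its trend and robust options and a Benjamini-Hochberg threshold of 0.05. The pseudocount of 1 understates changes of low genes. The fit was checked on simulated data. Between the 3 libraries of each group, read counts differed by far more than sampling noise (chi-square per degree of freedom of 12.5 to 42.6), so none was counted as a duplicate. Alternatives were another pseudocount, filter, scaling, moderation, test or set of libraries, a replicate block and leaving out each library.

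The comparison, the 52 gene lists and the rule for named genes were chosen with earlier results of these data known. Lists can share members, so their counts are not independent of each other. Named genes were the 12 largest rises and 12 largest falls among called genes with groups that do not overlap, a mean of at least 50 in the higher group, a call with each wild-type library left out and no predicted or clone symbol. Up to 4 called members of each list and direction by adjusted p (or the 2 most abundant where none was called), defining markers, the 6 smallest p-values of the interaction and the 10 largest changes shared by both aging comparisons were added, and text names some of these; uncalled members and some others were picked after their values were seen, and a few genes that the rule names are not reported here. Positions came from GENCODE M21, promoters from RefSeq GRCm38.p6. To judge read assignment, the transcripts of a gene were divided into overlapping words of 50 bases, and the share found in transcripts of other genes was taken.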

Additional observations from a re-analysis of the deposited data

Results flagged for a closer look

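The change with age differed between wild-type libraries and libraries labelled Trem1-/- for 408 of 16086 genes by limma's interaction test at an adjusted p under 0.05, which is what set these results apart. Of the genes named above 80 are among them, 75 with the larger value in wild type and 5 with the smaller. Of 242 named genes 210 were called in wild type, and the same wild-type values enter the difference. The choice of genes therefore favours larger changes in wild type, and this split is not a separate result. Without limma's trend and robust options 2 of these 80 passed, Tagln2 and Ifitm2, and with 1 of the 12 libraries left out 44 to 78 passed, 44 without aged Trem1-/- replicate 2 and 45 without aged wild type replicate 3. Values are the log2 change in wild type minus that in the labelled Trem1-/- libraries.

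Among genes of neutrophils, monocytes and dendritic cells the difference was 2.34 for Fpr1, 3.50 for Hdc, 2.60 for Il1r2, 4.29 for Mrgpra2b, 4.94 for Prtn3, 1.93 for Retnlg, 3.32 for Ly6c2, 3.43 for Gda, 3.03 for Cd44, 3.18 for F13a1, 6.29 for Vcan and 4.78 for Cd209a. Among interferon, p200 and Schlafen genes it was 2.40 for Ifi204, 3.32 for Ifi207, 2.86 for Mndal, 4.21 for Ifitm2, 3.0 for Oas3, 2.27 for Oasl2, 1.93 for Rsad2, 1.52 for Sp100, 1.54 for Gbp7, 3.43 for Slfn1 and 1.75 for Slfn2. Among actin, filament and adhesion genes it was 2.85 for S100a11, 2.41 for Tagln2, 1.37 for Flna, 0.82 for Lcp1, 3.27 for Anxa2, 3.92 for Vim, 0.63 for Tln1, 0.65 for Coro1a, 1.56 for Emp3 and 3.22 for Itgb7. Among receptors of the myeloid surface it was 3.40 for Trem1, 1.39 for Treml2, 2.66 for Cd300ld, 2.66 for Cd300lf, 2.42 for Pirb, 3.01 for Clec4e, 4.29 for Ms4a4a, 2.21 for Ms4a6c, 3.55 for Msr1, 0.64 for Fcgr2b and 2.45 for Fcgr4. Among genes of antigen presentation, cytokines, chemokines and Toll-like receptors it was 0.98 for H2-D1, 0.77 for H2-K1, 1.47 for Cd74, 3.09 for Il1b, 2.04 for Il18rap, 1.97 for Ccr1, 3.56 for Tlr8 and 1.52 for Irak3. Among genes of lipid, sugar and oxidant metabolism it was 0.68 for Alox5ap, 3.21 for Pla2g7, 2.40 for Ptger4, 1.6 for Plin2, 2.95 for Dgat2, 0.99 for Eno1, 0.73 for Gpi1, 0.97 for Ldha, 0.81 for Pkm, 2.07 for Gsr, 0.93 for Rac2 and 1.75 for Hmox1. Among the remaining rises it was 1.83 for Sorl1, 3.19 for Lgals3, 1.26 for Cd52, 2.73 for Adam19, 2.15 for Klf2, 1.61 for Klf4, 1.72 for Fosl2, 1.78 for Ier2, 1.66 for Lmnb1, 4.72 for Met and 6.47 for Steap4. Among genes that fell in wild type it was -1.70 for Dtx3, -0.94 for Ecscr, -0.65 for Gpr34, -0.62 for Hpgds and -1.31 for Srpk3.

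Every one of these values rests on the labels, since libraries labelled Trem1-/- carried Trem1 reads, and on groups of 3 libraries.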

How the results depend on the processing

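The 2 counts of the aging comparison, 1034 genes higher and 360 lower, stayed within 1.5 times under a pseudocount of 0.5 or 5, a filter at a mean of 50, no filter, TMM scaling, edgeR, DESeq2, the 6 wild-type libraries alone and a replicate block, with 895 to 1296 higher and 255 to 472 lower. Without the trend and robust options they were 511 and 70. With each wild-type library left out they ranged from 559 to 1109 and from 161 to 503. The replicate block gave 1061 and 399, 557 for the difference of the aging changes and 136 for calls shared by both aging comparisons. The numbers were not used for pairing, since residuals of same-numbered libraries had correlations of -0.136 to 0.0988. The difference of the aging changes passed for 408 genes, for 5 without trend and robust, for 769 with DESeq2, and for 197 to 790 with 1 of the 12 libraries left out. The 116 shared calls became 5 without trend and robust, 229 with DESeq2 and 43 to 169 with 1 library left out. Causes of these differences were not tested.

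Of 242 named genes 210 were called, and none of these changed direction under any alternative. The call was lost by 80 without trend and robust, by 18 with the wild-type libraries alone, by 16 with no filter, by 13 with edgeR, by 4 with the replicate block, by 2 each with TMM scaling and with a pseudocount of 0.5, and by 1 with DESeq2. Leaving out 1 library lost 11 to 49 of them, most without aged replicate 3. Reversals occurred among genes not called, all near 0 or widely spread. With TMM scaling Ctsb was at -0.0026 and Ctsd at -0.0051. With each wild-type library left out, the change ran from -0.0847 to 0.110 for Ctsb, from -0.0726 to 0.117 for Ctsd, from -0.0479 to 0.277 for Gapdh, from -0.0045 to 0.154 for Hif1a, from -0.0515 to 0.0418 for Ifnar1, from -1.32 to 0.508 for Igf1, from -0.0871 to 0.0744 for Itgb1 and from -0.134 to 0.0227 for Slc2a5. Depth limits the largest rises, since 95 genes called higher had a young mean under 10 normalized counts.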
